A study of Danio rerio with 14 samples.

Results

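The cytochrome P450 genes on the zebrafish array were read in 14 adult liver samples. A gene was taken when a probe set was assigned to it alone and its symbol began with cyp and a digit, with cyp2r1 left out, and of several probe sets of a gene the brightest on average over the 14 arrays (called the highest-mean probe set) stood for it. This gave 47 genes with 68 probe sets, out of 8793 genes to which some probe set is assigned alone and 15502 probe sets other than controls. All 68 probe sets passed the filter on low values, and 13 of the genes had more than 1 probe set.

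Cytochrome P450 enzymes are haem proteins that insert an oxygen atom into lipid-like substrates, drawing electrons from a reductase in the endoplasmic reticulum or from ferredoxin in mitochondria. In the vertebrate liver, members of the CYP1, CYP2 and CYP3 families oxidise drugs, pollutants and dietary chemicals, while other members make bile acids, sterols and steroid hormones or break down vitamin D and retinoic acid. Many of these genes answer to receptors that sense foreign chemicals, bile acids, fatty acids or sterols, and fish carry several subfamilies, such as CYP2K, CYP2P, CYP2X and CYP2AA, that expanded apart from those of mammals.

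The fish carried either 2 intact copies of ahcy (ahcy+/+) or were heterozygous for it (ahcy+/-); ahcy encodes the hydrolase that clears S-adenosylhomocysteine. Over the course of a month, 1 tank of mixed genotypes got a typical food ration (regular diet) and another was overfed. The arrays, 1 per liver, are numbered 2, 5, 6 and 9 for the 4 regular-diet ahcy+/+ fish, 3, 7 and 8 for the 3 regular-diet ahcy+/- fish, 2, 3, 4, 6 and 7 for the 5 overfed ahcy+/+ fish and 1 and 4 for the 2 overfed ahcy+/- fish, and array values are listed below in this order. The labels give neither sex nor the nature of the ahcy allele, and the regular-diet fish are the controls. Since a diet was given to 1 tank, an effect of the tank cannot be told apart from one of the food, and p-values here reflect only how fish of a tank vary.

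The ahcy probe set itself stood at 13.16 ± 0.06 (SD, n = 4), 13.26 ± 0.07 (n = 3), 13.21 ± 0.05 (n = 5) and 13.29 ± 0.06 (n = 2) on the log2 scale in the 4 groups, so that transcript level did not separate the genotypes and groups are named by their labels. The mean of 11 hepatocyte markers was 12.9 to 13.4 and 13.32 to 13.35 in the regular-diet ahcy+/+ and ahcy+/- livers. In the overfed livers it was 13.33 to 13.56 and 13.55 to 13.59. Averaged over both genotypes, 10 of the 11 were higher after overfeeding, with a median of 0.32 (log2) against -0.07 over all tested probe sets. Of the 11, 3 were called higher and 0 lower by the test described below, beside 10.3% of all tested probe sets. The part of this shift in the P450 differences was not tested. Markers of other tissues differed between arrays and between diets as well. The mean of 11 intestine markers was 6.77 to 9.68 and 7.02 to 10.25 in the regular-diet ahcy+/+ and ahcy+/- livers and 6.38 to 6.84 and 6.45 to 7.37 in the overfed ones. In the mean of both genotypes 9 of these 11 were lower after overfeeding and 2 higher, with a median of -1.40 (log2). The test called 3 of the 11 lower and 0 higher, beside 10.3% of all tested probe sets. The mean of 14 exocrine pancreas markers ran from 7.05 to 12.88, and that of 3 vitellogenin genes, the yolk precursors that oestrogen induces in liver, was 13.9 on regular-diet ahcy+/+ array 9, 12.4 on overfed ahcy+/- array 1, 9.28 on overfed ahcy+/+ array 2 and 5.37 to 7.15 on the rest. After overfeeding all 14 pancreas markers were lower (median -1.67) and the 3 vitellogenin genes higher (median 1.35), with 0 called in either list. All 8 skeletal muscle markers were lower, with 2 called, and the 3 erythrocyte markers were higher, with 0 called. The part of these shifts in the P450 differences was not tested beyond the fits given below.

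By role, assigned from the symbol, the 47 genes were 21 of foreign compound metabolism, 6 of bile acid synthesis, 6 of fatty acid and eicosanoid metabolism, 5 of steroid hormone synthesis, 4 of retinoid metabolism, 4 of sterol and vitamin D metabolism, and cyp20a1, which has no assigned substrate. A cyp2, cyp3 or cyp4 enzyme can act on several kinds of substrate. In all, 11 genes were above 8 (log2) on every array and 21 were below 7 on every array, 13 of them below 6. The 11 held 6 genes of foreign compound metabolism, 2 of sterol and vitamin D metabolism, 2 of fatty acid metabolism and 1 of bile acid synthesis, and none of the steroid or retinoid genes. Many of the genes lie beside each other: 25 of the 47 fell into 8 groups of neighbours within 10 steps of gene order in the reference annotation, the largest being cyp2aa1, cyp2aa3, cyp2aa4, cyp2aa6, cyp2aa9 and cyp2aa11. Near-identical copies may share signal on a probe set, and the probe sets of cyp2p8 and cyp2p9 come from the same design cluster of the array, so their assignment is uncertain. A shared cluster also holds the probe set of cyp8b1.3 and that of cyp8b1.1 with the lower mean, but not the highest-mean probe set of cyp8b1.1.

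**Figure D1:**
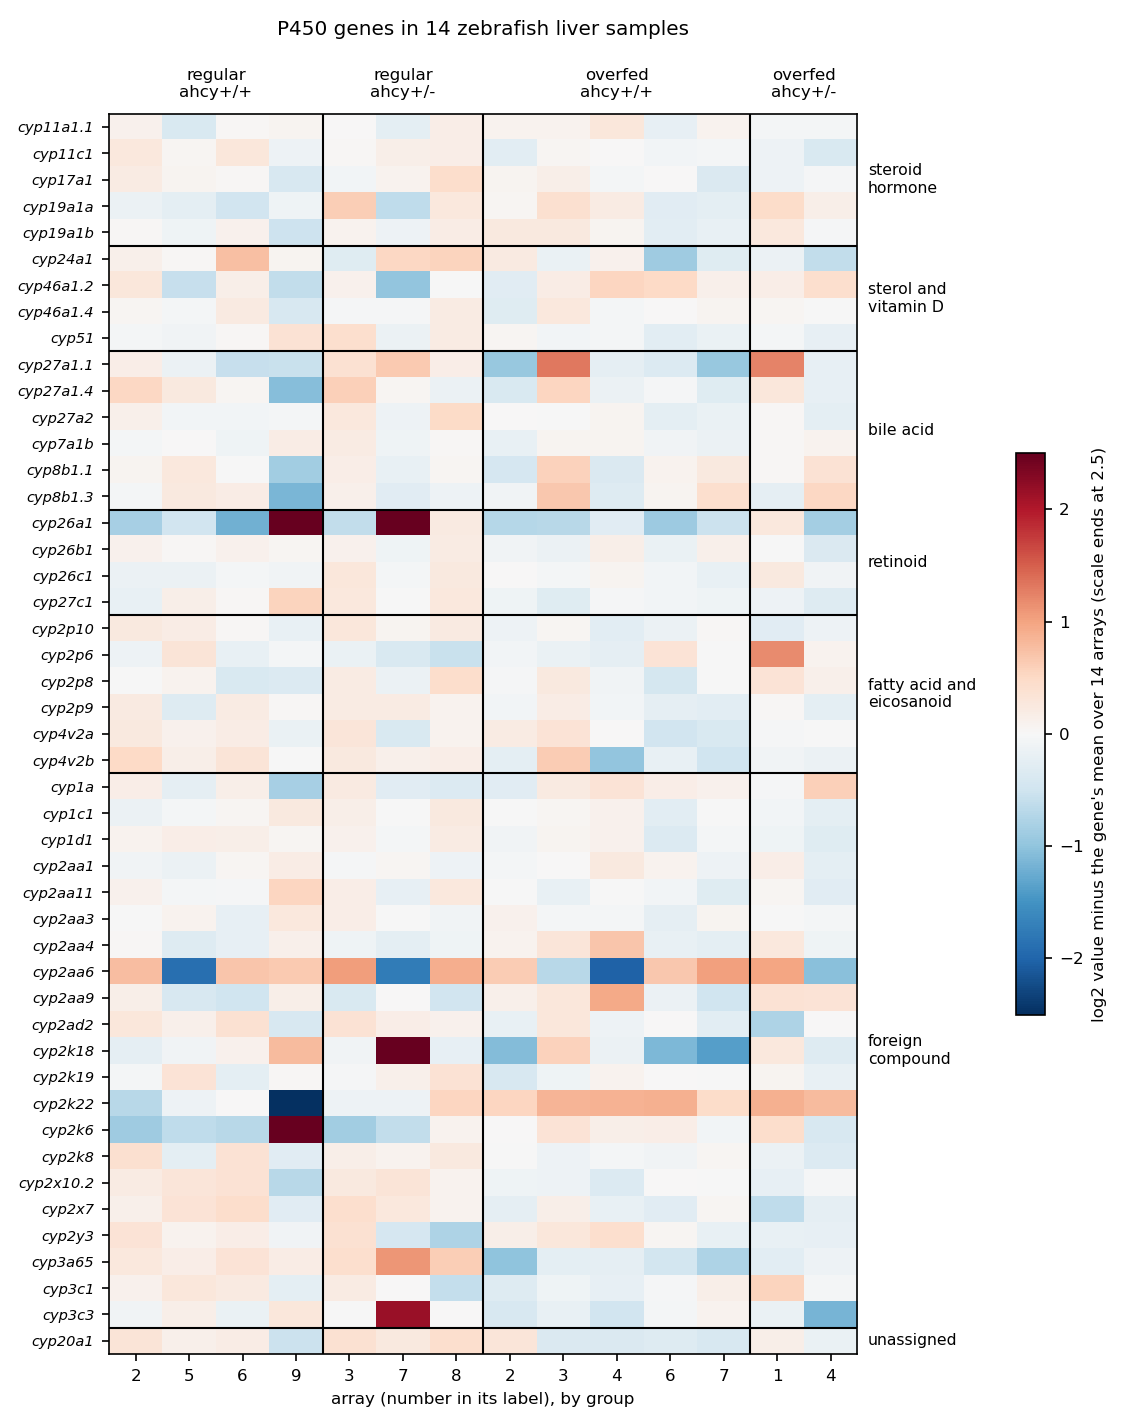
Heat map of the 47 P450 genes (rows, by role) on 14 arrays (columns, by group, numbered as in the labels), coloured by the log2 value minus the gene's mean over all arrays. Most rows are pale, and the darkest cells belong to cyp26a1, cyp2k18, cyp2k22, cyp2k6, cyp2aa6 and cyp3c3, several of them on regular-diet ahcy+/+ array 9 and regular-diet ahcy+/- array 7.

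Overfeeding went with lower cyp3a65 and cyp2x7, both CYP genes of foreign compound metabolism, and with no other P450 call. Differences were tested with limma on all probe sets and called at a Benjamini-Hochberg adjusted p under 0.05. In ahcy+/+ livers 1 of 47 genes, cyp3a65, was called and was lower, which is 2.13% against 4.5% of all tested probe sets. In ahcy+/- livers limma called 0 genes, against 0.0991% of all probe sets, and 7 had an unadjusted p under 0.05, which is 14.9% against 14.2%. In the mean of both diet differences, 2 genes were called and both were lower, 4.26% against 10.3%, while at an unadjusted p under 0.05 there were 13, 27.7% against 27.7%. In ahcy+/+ livers the unadjusted count was 2, 4.26% against 19.7%. With all 14 arrays, the P450 share was thus at or below that of all probe sets in the ahcy+/+ and mean comparisons, and in bulk liver a lower value may mean less RNA per cell or fewer cells of a type, which cannot be told apart.

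The direction was mixed as well. In the mean diet effect 18 genes had a positive and 29 a negative difference, with a median of -0.11 (log2) against -0.07 over all tested probe sets. Of all 15134 tested probe sets, 5821 had a positive and 9313 a negative difference, so the array as a whole leaned to lower values too. The diet differences of the 2 genotypes, which share no array, had the same sign for 39 of 47 genes (12 higher, 27 lower), or 83.0% against 75.0% of all probe sets. Of the 47 genes, 1 had all 7 overfed arrays beyond all 7 regular-diet arrays, namely cyp3a65, or 2.13% against 3.55%.

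These counts depended on regular-diet ahcy+/+ array 9, which was the lowest array for 10 of the genes and the highest for 5. Without it, the mean diet effect called 9 genes, 19.1% against 15.3% of all tested probe sets: cyp2k22 and cyp2k6 were higher after overfeeding, and cyp11c1, cyp20a1, cyp2ad2, cyp2p10, cyp2x10.2, cyp2x7 and cyp3a65 were lower. In ahcy+/+ livers alone it called 4, 8.51% against 8.86%: cyp2k22 and cyp2k6 higher, cyp2x10.2 and cyp3a65 lower. That array also had the highest vitellogenin mean (13.9), the lowest hepatocyte mean (12.9) and an intestine mean of 9.68; the part of these in the counts was not tested beyond the alternatives given below.

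**Figure D2:**
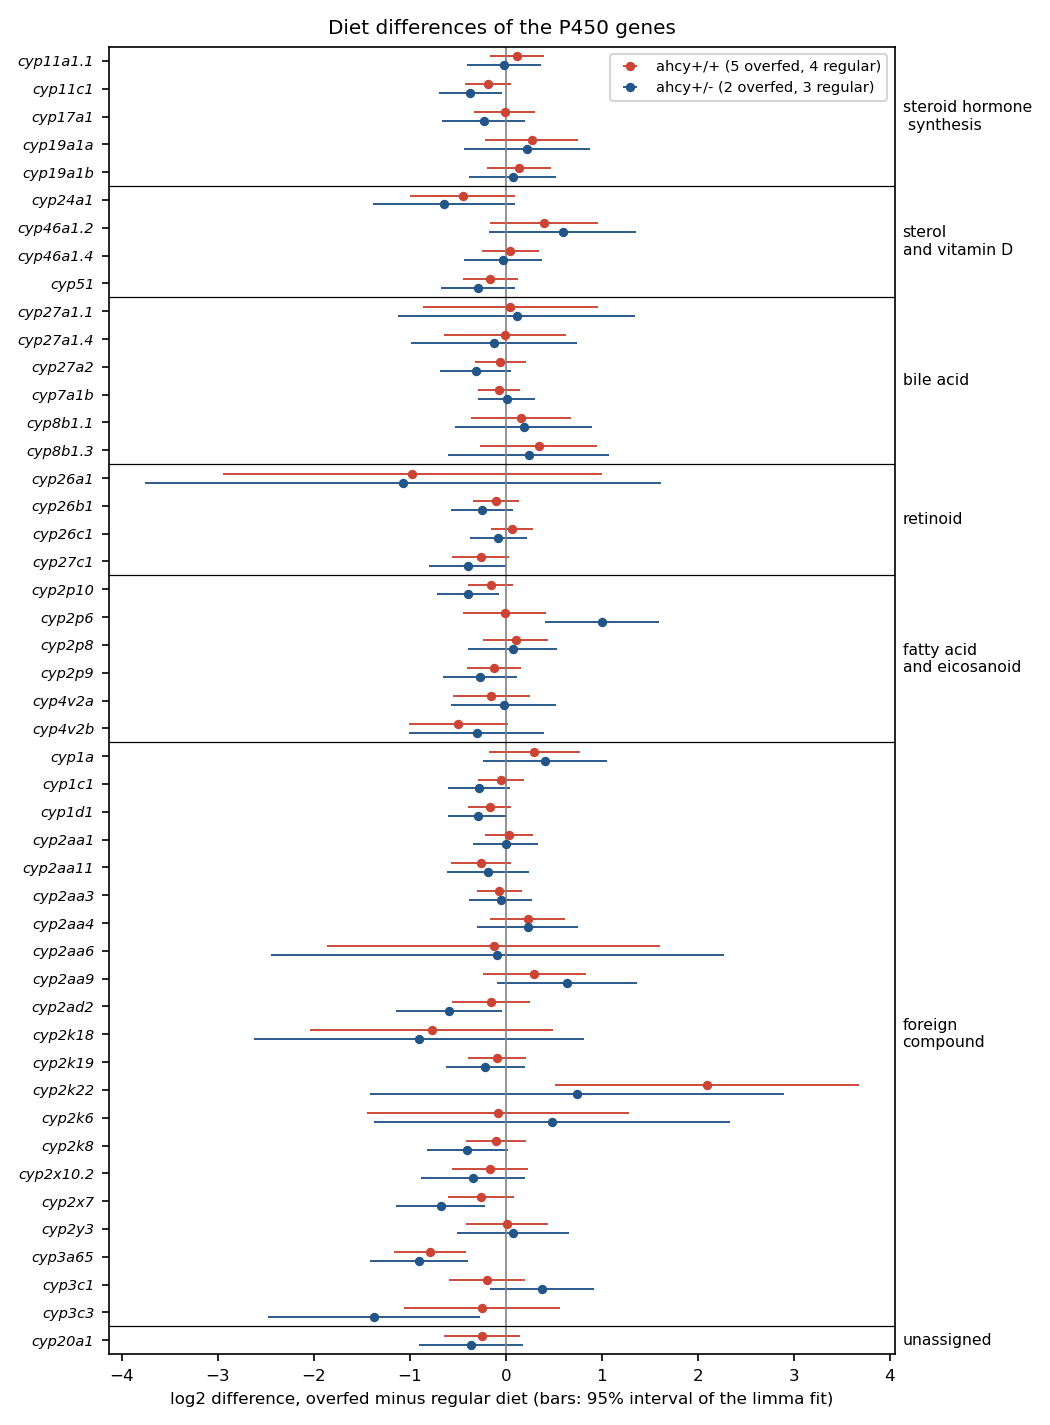
Log2 difference between overfed and regular diet for each of the 47 P450 genes, by role, in ahcy+/+ livers (red, 5 against 4 arrays) and ahcy+/- livers (blue, 2 against 3 arrays), with the 95% interval of the limma fit. The intervals of cyp3a65 lie below 0 in both genotypes, and those of cyp2k22, cyp26a1, cyp2aa6, cyp2k18 and cyp2k6 are the broadest.

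Among the foreign compound genes, cyp3a65 encodes a CYP3A enzyme of liver and intestine, the zebrafish counterpart of the main drug-oxidising enzymes of human liver. Its log2 value was 11.21, 11.11, 11.27 and 11.13 in regular-diet ahcy+/+ livers, 11.35, 12.04 and 11.56 in regular-diet ahcy+/- livers, 9.94, 10.69, 10.71, 10.47 and 10.16 in overfed ahcy+/+ livers, and 10.67 and 10.81 in overfed ahcy+/- livers. Each overfed array was thus below each regular-diet array, in both genotypes. The fall averaged 0.85 on the log2 scale, a 1.8-fold lower level (log2 difference -0.85, SE 0.15, limma adjusted p = 0.00484). In ahcy+/+ livers alone the difference was -0.79 (adjusted p = 0.0233), and in ahcy+/- livers -0.91 (adjusted p = 0.139), which was not called.

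The other probe set of cyp3a65 gave the same order of groups. It read 8.86, 8.06, 9.12 and 8.80 in the regular-diet ahcy+/+ and 8.68, 9.22 and 8.53 in the regular-diet ahcy+/- livers, then 7.44, 7.91, 7.83, 7.60 and 7.02 in the overfed ahcy+/+ and 7.84 and 7.67 in the overfed ahcy+/- livers. Its diets did not overlap either, and the mean diet difference was -1.10 (adjusted p = 0.00536), with -1.15 in ahcy+/+ livers (adjusted p = 0.0166). The mean diet effect of the highest-mean probe set was called under all 26 alternatives run for it. The call in ahcy+/+ livers alone ended without regular-diet ahcy+/+ array 2 (adjusted p = 0.0676), 5 (adjusted p = 0.0577) or 6 (adjusted p = 0.0684) or overfed ahcy+/+ array 6 (adjusted p = 0.0559), and with the pancreas and intestine means as covariates (-0.68, adjusted p = 0.0938).

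The intestine also makes cyp3a65, and intestine markers were high on some of the regular-diet arrays. Regular-diet ahcy+/- array 7 had both the highest intestine mean (10.25) and the highest cyp3a65 value (12.04), and regular-diet ahcy+/+ array 2, with the lowest intestine mean of the regular diet (6.77), had a cyp3a65 value of 11.21. Without the 2 arrays highest in intestine markers the mean diet difference of cyp3a65 was -0.76 (adjusted p = 0.00787). With the pancreas and intestine means as covariates it was -0.75 (adjusted p = 0.0421). The part of the intestine in the difference was not tested beyond these fits.

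**Figure D3:**
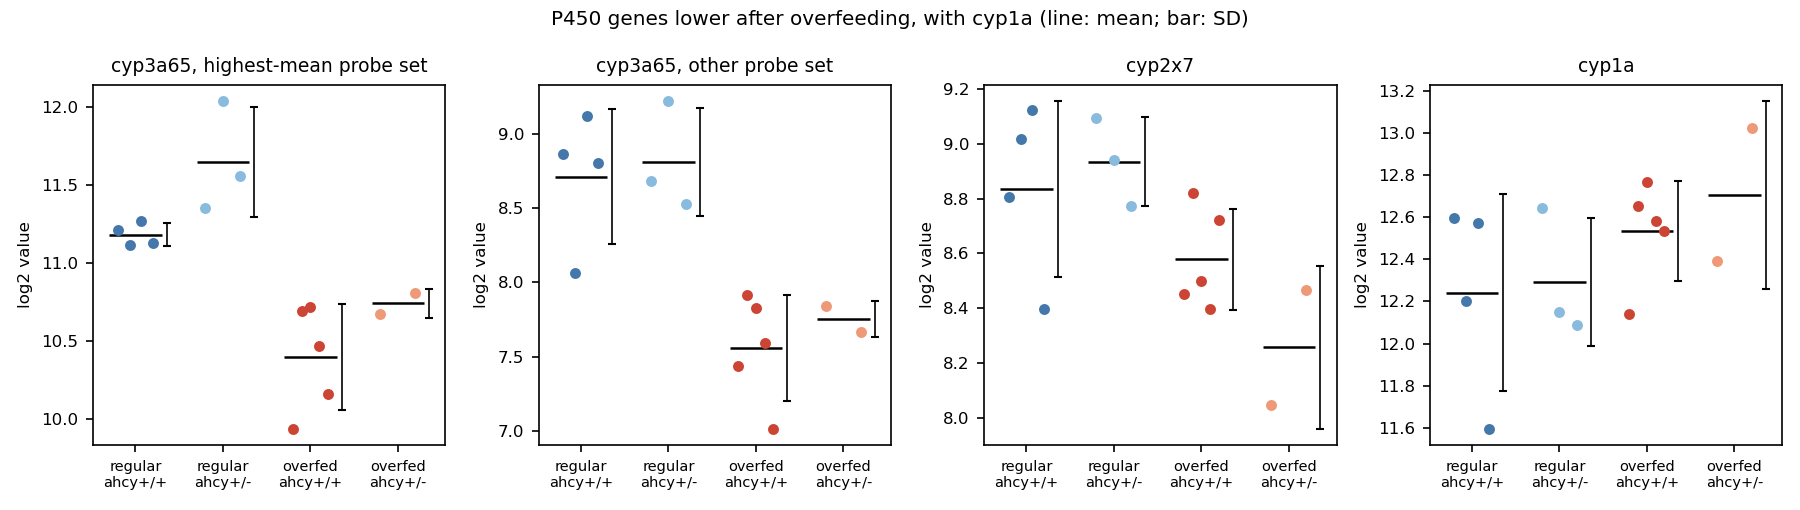
Log2 values of both cyp3a65 probe sets, cyp2x7 and cyp1a on each array by group (points), with the group mean (line) and SD (bar). For both cyp3a65 probe sets the overfed points lie below the regular-diet points without overlap, whereas the diets overlap for cyp2x7 and cyp1a.

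The gene cyp2x7 belongs to a CYP2 subfamily found in fish. It read 8.80, 9.02, 9.12 and 8.40 in regular-diet ahcy+/+, 9.09, 8.94 and 8.77 in regular-diet ahcy+/-, 8.45, 8.82, 8.499, 8.39 and 8.72 in overfed ahcy+/+ and 8.05 and 8.47 in overfed ahcy+/- livers. The diets overlapped: regular-diet ahcy+/+ arrays 2 and 9 and regular-diet ahcy+/- array 8 were below the highest overfed array. The mean diet difference was -0.47 (SE 0.13, adjusted p = 0.0421), with -0.26 in ahcy+/+ (adjusted p = 0.398) and -0.68 in ahcy+/- livers (adjusted p = 0.1995), neither called. The call ended without regular-diet ahcy+/+ array 2, 5 or 6, regular-diet ahcy+/- array 3 or 7, overfed ahcy+/+ array 2, 4 or 6, or either overfed ahcy+/- array (adjusted p from 0.0621 to 0.172), with moderation by trend and robust fitting (adjusted p = 0.053) and with arrays centred on their medians (adjusted p = 0.0955).

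The gene cyp1a, the classic target of the aryl hydrocarbon receptor, was above 8 on all arrays. Its values were 12.60, 12.20, 12.57 and 11.60, then 12.64, 12.15 and 12.09 on the regular diet and 12.14, 12.65, 12.77, 12.58 and 12.54, then 12.39 and 13.02 after overfeeding. The diets overlapped, and the mean diet difference of 0.35 (SE 0.19, adjusted p = 0.232) was not called. With the vitellogenin mean as a covariate it was called (0.55, adjusted p = 0.0115), and with the pancreas and intestine means it turned to -0.08 (adjusted p = 0.8287). The highest-mean probe sets of its paralogues cyp1c1 and cyp1d1 stayed between 6.08 and 6.58 and between 5.33 and 5.86 on all arrays. Their differences were -0.17 (adjusted p = 0.26) and -0.23 (adjusted p = 0.11). The other probe sets of cyp1c1 ran from 5.32 to 6.31 and from 4.42 to 6.54. Those had differences of -0.31 (adjusted p = 0.133) and -0.29 (adjusted p = 0.653).

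Of the 21 foreign compound genes, 2 fell and 0 rose in the mean diet effect by limma, beside 10.3% of all tested probe sets. At an unadjusted p under 0.05, 5 were lower and 2 higher, beside 27.7% of all tested probe sets in either direction. The other lower ones were cyp1d1, cyp3c3 (-0.81, adjusted p = 0.119) and cyp2ad2 (-0.37, adjusted p = 0.145), and the higher ones cyp2k22 (1.42, adjusted p = 0.157) and cyp2aa9 (0.47, adjusted p = 0.168). The 4 genes of the cyp2aa group other than cyp2aa6 and cyp2aa9, namely cyp2aa1, cyp2aa3, cyp2aa4 and cyp2aa11, had differences of 0.01, -0.06, 0.23 and -0.22, none of them called.

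Some foreign compound genes differed widely between livers of the same group, and they are described because their ranges stood out. The median residual SD was 0.283 for P450 genes and 0.226 for all tested probe sets, and 8 P450 genes (17%, against 7.83% of all) had a range over 2 (log2), while 23 had a range under 1. The gene cyp2k22 read 11.29, 11.85, 11.99 and 7.29 in regular-diet ahcy+/+, 11.86, 11.85 and 12.53 in regular-diet ahcy+/-, 12.53, 12.83, 12.85, 12.87 and 12.44 in overfed ahcy+/+ and 12.87 and 12.77 in overfed ahcy+/- livers. Array 9 was thus far below the other arrays, and among the rest the overfed livers were higher with an overlap of the regular-diet ahcy+/- array 8. Its difference in ahcy+/+ livers was 2.098 (SE 0.73, adjusted p = 0.126) with array 9, and 0.99 (SE 0.19, adjusted p = 0.0102) without it.

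Its subfamily member cyp2k6 went the other way on array 9. It read 4.70, 4.96, 4.89 and 8.58 in regular-diet ahcy+/+, 4.71, 4.97 and 5.67 in regular-diet ahcy+/-, 5.60, 5.92, 5.74, 5.75 and 5.51 in overfed ahcy+/+ and 6.02 and 5.17 in overfed ahcy+/- livers. With all arrays the difference in ahcy+/+ livers was -0.08 (adjusted p = 0.963), and without array 9 it was 0.85 (adjusted p = 0.032), with each overfed ahcy+/+ array above the 3 remaining regular-diet ahcy+/+ arrays. Vitellogenin was highest on the same array, and overfed ahcy+/- array 1, the next in vitellogenin, had 12.87 for cyp2k22 and 6.02 for cyp2k6. With the vitellogenin mean as a covariate, the mean diet difference of cyp2k22 went from 1.42 to 2.09 and was called (adjusted p = 0.00636), and that of cyp2k6 turned from 0.20 to -0.41 (adjusted p = 0.326). With the pancreas and intestine means they were 0.23 (adjusted p = 0.884) and 1.45 (adjusted p = 0.104). The part of vitellogenin or of these tissues in the values of array 9 was not tested beyond these fits.

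The genes cyp2k18 and cyp3c3 were highest on regular-diet ahcy+/- array 7, at 9.37 and 7.37, where the other 13 arrays lay between 5.06 and 7.23 and between 4.05 and 5.49. That array also had the highest intestine mean, 10.25, and the mean diet differences changed with it. For cyp2k18 the difference was -0.84 (adjusted p = 0.287) with all arrays, -0.32 without array 7, -0.22 without the 2 arrays highest in intestine markers and 0.15 with the pancreas and intestine covariates. For cyp3c3 it was -0.81 with all arrays, -0.45 without array 7, -0.41 without the 2 arrays and -0.20 with the covariates, which also turned its ahcy+/+ difference from -0.25 to 0.39. None of these values was called, with adjusted p from 0.106 to 0.899. The gene cyp2aa6 took separate levels that followed neither diet nor genotype: it read 8.87, 6.22, 8.80 and 8.77, then 9.16, 6.36 and 9.01 on the regular diet, and 8.75, 7.41, 6.09, 8.79 and 9.14, then 9.11 and 7.06 after overfeeding. Each group held arrays of both kinds, and the mean diet difference was -0.11 (SE 0.68, adjusted p = 0.934).

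**Figure D4:**
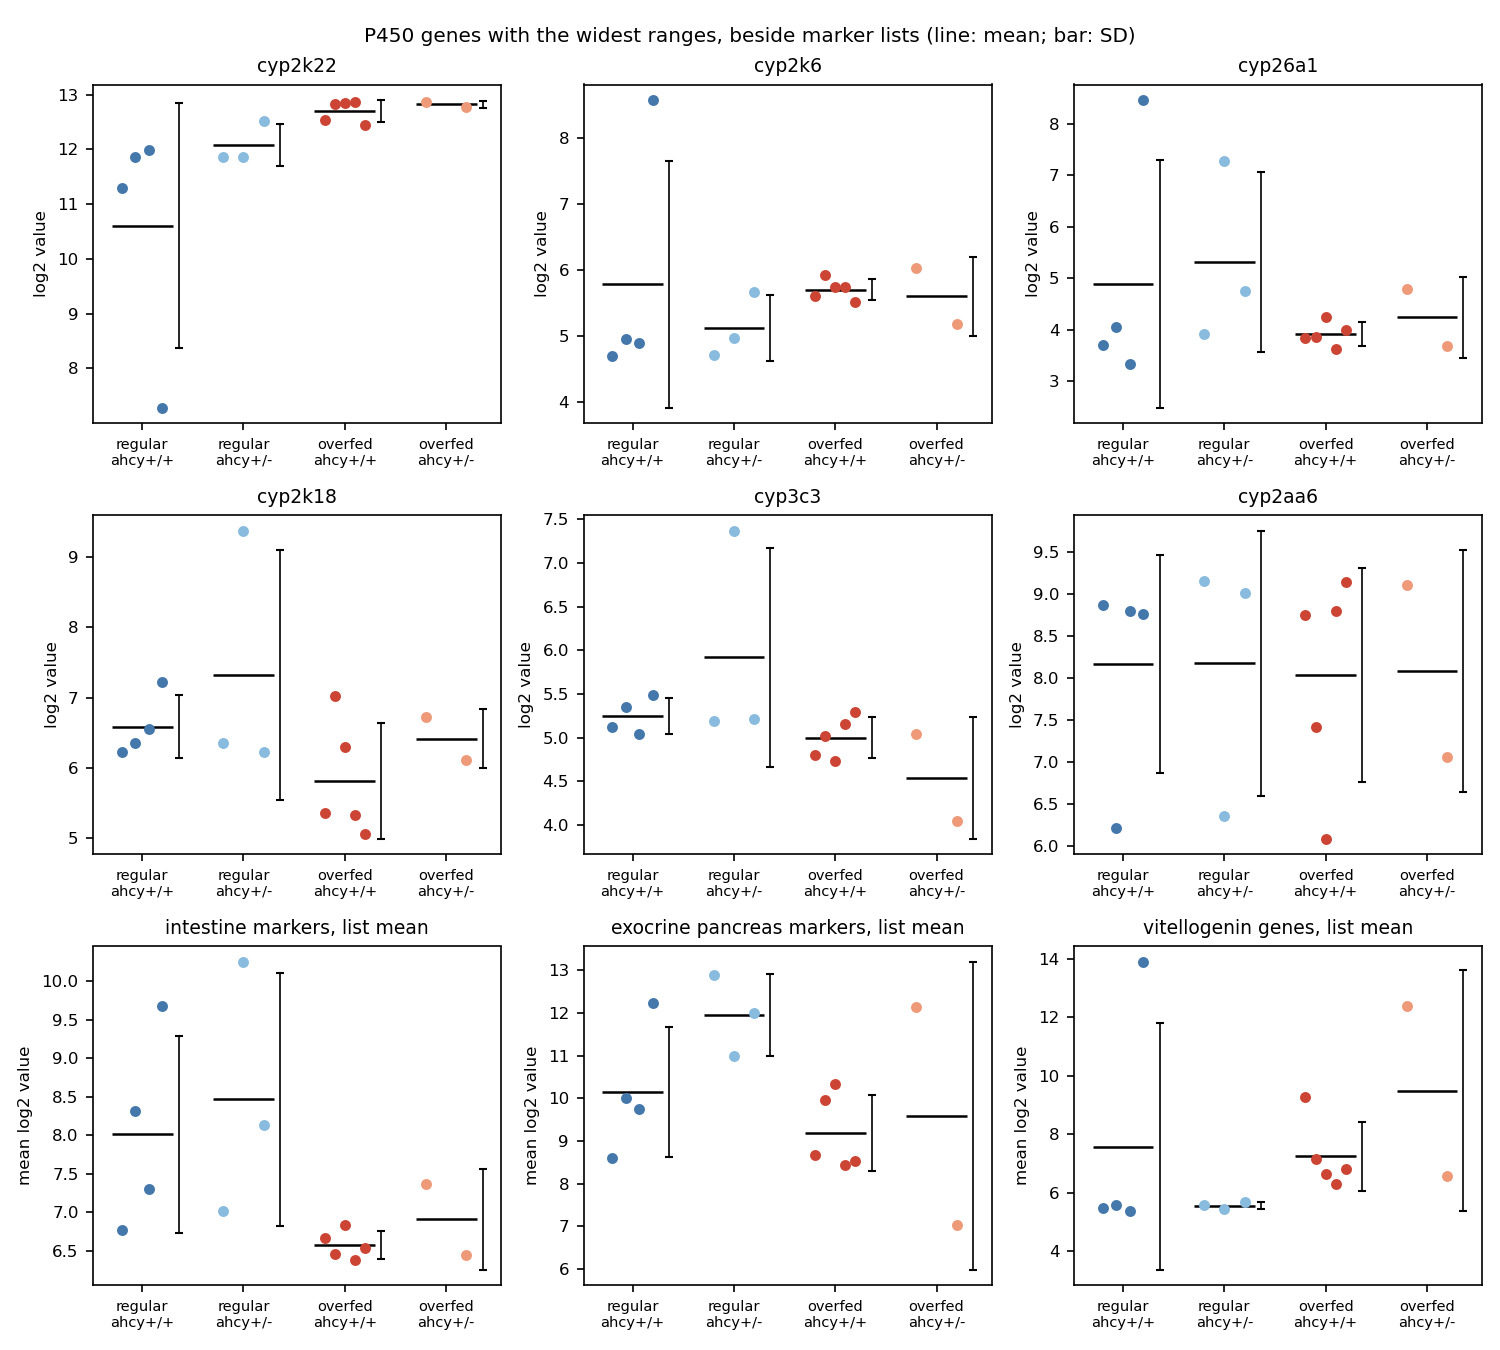
Log2 values by array and group of the 6 P450 genes with the widest ranges, beside the mean log2 values of the intestine, exocrine pancreas and vitellogenin marker lists (points: arrays; line: group mean; bar: SD). Regular-diet ahcy+/+ array 9 is at 7.29 for cyp2k22 and 8.58 for cyp2k6, regular-diet ahcy+/- array 7 is highest for cyp2k18 and cyp3c3, and cyp2aa6 is low on some arrays of each group.

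In the sterol and vitamin D group, the probe sets of cyp51, which encodes the lanosterol demethylase of cholesterol synthesis, disagreed. The probe set with the highest mean read 6.45, 6.41, 6.52 and 6.87, then 6.92, 6.36 and 6.71 on the regular diet and 6.54, 6.43, 6.46, 6.24 and 6.34, then 6.45 and 6.29 after overfeeding, a mean difference of -0.23 (SE 0.11, adjusted p = 0.201). Of the 3 others, the partner from the same design cluster read 5.61, 5.94, 5.91 and 5.72, then 5.62, 5.64 and 5.95 on the regular diet and 5.71, 5.50, 7.08, 9.01 and 8.34, then 7.10 and 6.87 after overfeeding. On this probe set 5 of 7 overfed arrays were above all regular-diet arrays, and overfed ahcy+/+ arrays 2 and 3 were not.

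The remaining pair showed the same split of the overfed arrays. Of the 2 from another design cluster, the unique-type probe set (suffix _at) read 5.96, 1.68, 1.06 and 5.58, then 2.90, 5.84 and 5.59 on the regular diet and 4.11, 4.31, 7.60, 9.93 and 7.79, then 8.22 and 8.13 after overfeeding. The type whose probes may cross-hybridise (suffix _x_at) read 6.10, 2.25, 2.81 and 5.62, then 3.62, 5.83 and 5.58 on the regular diet, and 4.52, 4.72, 7.77, 9.96 and 7.83, then 8.33 and 8.30 after overfeeding. The mean diet differences of the 3 were 1.29 (SE 0.49, adjusted p = 0.112), 3.29 (SE 1.11, adjusted p = 0.0761) and 3.04 (SE 0.94, adjusted p = 0.0565), none called in the main fit. Under the 24 alternatives run for each, limma called them higher in 1, 2 and 7, in this order. The highest-mean probe set was called lower in 1 of 26, with the vitellogenin covariate (-0.31, adjusted p = 0.0493). Over the 14 arrays the Pearson correlation of the 3 with the highest-mean probe set was -0.55, -0.46 and -0.49, as a description of probe sets read on the same arrays.

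**Figure D5:**
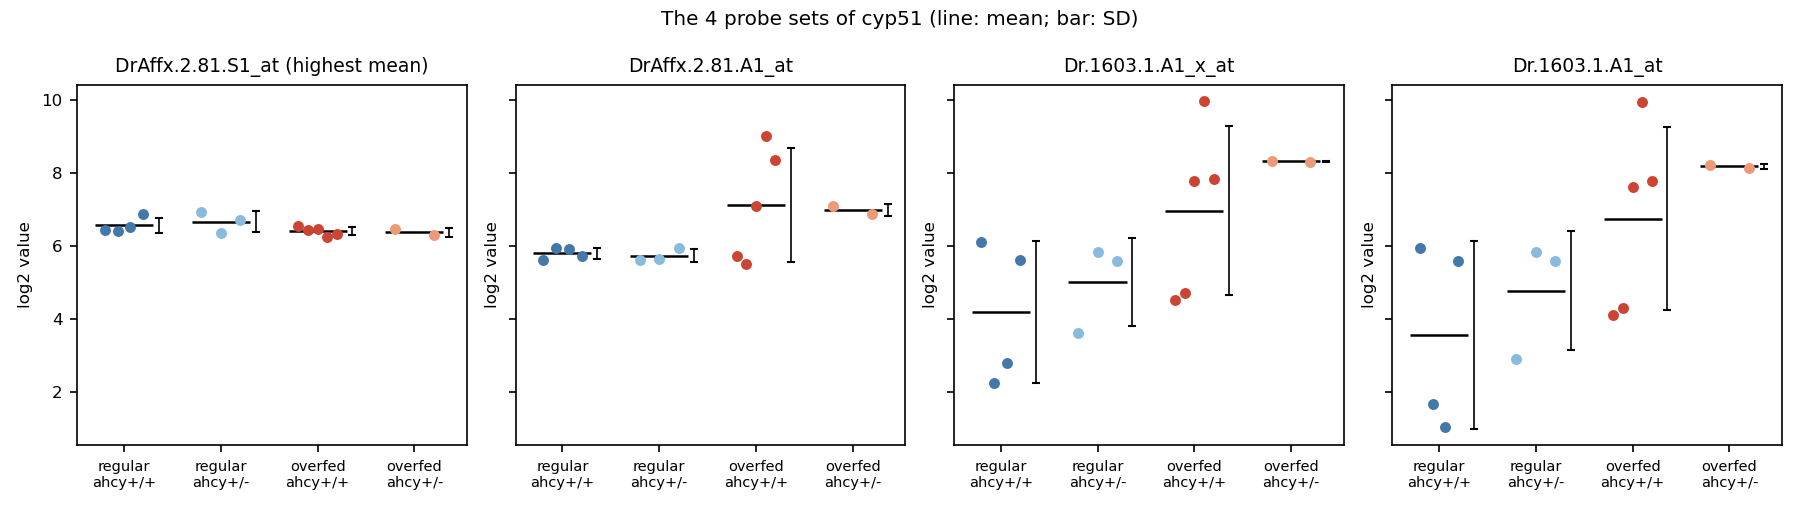
Log2 values of the 4 probe sets of cyp51 on each array by group (points), with the group mean (line) and SD (bar), on a shared axis. The highest-mean probe set is flat near 6.5, and in the other 3 probe sets 5 of 7 overfed arrays lie above the regular-diet arrays while overfed ahcy+/+ arrays 2 and 3 do not.

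Of 12 other sterol synthesis genes measured, 4 were called higher after overfeeding and 0 lower, against 10.3% of all tested probe sets called in either direction. At an unadjusted p under 0.05 there were 6 higher and 1 lower, against 27.7% of all in either direction. In all, 11 had a positive mean diet difference, with a median of 1.29 against -0.07 over all tested probe sets. The 4 that rose were insig1, which holds the sterol sensor in the endoplasmic reticulum (1.65, adjusted p = 0.00401), acat2, which makes acetoacetyl-CoA (1.51, adjusted p = 0.0154), farnesyl diphosphate synthase fdps (3.28, adjusted p = 0.039) and squalene synthase fdft1 (2.61, adjusted p = 0.0418). In overfed ahcy+/+ livers fdps and fdft1 varied widely, with SDs of 2.86 and 2.33 against 0.25 to 0.50 in the other groups. Neither was called for diet in ahcy+/+ livers alone. The list and its increase were known from earlier results on these samples, and so are not independent evidence.

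The gene cyp24a1, whose enzyme inactivates vitamin D, read 11.55, 11.45, 12.18 and 11.48, then 11.11, 11.95 and 11.98 on the regular diet, and 11.65, 11.26, 11.53, 10.53 and 11.11, then 11.26 and 10.81 after overfeeding. The diets overlapped, and the difference was -0.55 (SE 0.21, adjusted p = 0.117), with -0.72 on its other probe set. The cholesterol hydroxylase genes cyp46a1.2 and cyp46a1.4, whose mammalian counterpart is known from brain, had differences of 0.49 (adjusted p = 0.167) and 0.01 (adjusted p = 0.972).

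None of the 6 bile acid genes was called in any comparison, beside 10.3% of all tested probe sets called in the mean diet effect. None had an unadjusted p under 0.05 for that effect, beside 27.7%. The gene cyp8b1.1, a sterol hydroxylase that sets the kind of bile acid made in mammals, read 9.98, 10.17, 9.91 and 9.05, then 10.08, 9.72 and 9.96 on the regular diet, and 9.48, 10.48, 9.54, 9.999 and 10.16, then 9.94 and 10.27 after overfeeding. The difference was 0.17 (SE 0.21, adjusted p = 0.612), and its neighbour cyp8b1.3 had 0.29 (adjusted p = 0.45). Both were lowest on regular-diet ahcy+/+ array 9. The gene cyp7a1b, a paralogue of the enzyme that starts bile acid synthesis, stayed between 5.87 and 6.26 on all arrays, with a difference of -0.03 (SE 0.09, adjusted p = 0.841) and a 95% interval from -0.22 to 0.15.

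The CYP27A genes act on the sterol side chain. Their values were wide for cyp27a1.1, which read 6.01, 5.69, 5.28 and 5.29, then 6.23, 6.50 and 6.02 on the regular diet and 4.89, 7.16, 5.63, 5.51 and 4.89, then 7.09 and 5.64 after overfeeding. On the regular diet the 3 ahcy+/- arrays were above the 4 ahcy+/+ arrays, the closest being 6.02 and 6.01, while after overfeeding the genotypes overlapped. The share of all probe sets whose genotypes do not overlap on the regular diet was not counted. The mean diet difference of cyp27a1.1 was 0.08 (adjusted p = 0.904). For cyp27a1.4 and cyp27a2 it was -0.06 (adjusted p = 0.893) and -0.19 (adjusted p = 0.27). Of 8 measured bile acid genes other than P450s, 3 had a positive and 5 a negative difference. Limma called 0 of the 8, beside 10.3% of all tested probe sets. At an unadjusted p under 0.05 there was 1, beside 27.7%.

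In the retinoid group, the CYP26 enzymes degrade retinoic acid and cyp27c1 converts vitamin A to the form used by red-shifted visual pigments in zebrafish. The gene cyp26a1 read 3.71, 4.05, 3.33 and 8.46, then 3.92, 7.27 and 4.76 on the regular diet, and 3.83, 3.85, 4.25, 3.63 and 4.002, then 4.80 and 3.69 after overfeeding. It was thus near the low end of the scale on most arrays and high on regular-diet ahcy+/+ array 9 and regular-diet ahcy+/- array 7, which are also the 2 arrays highest in intestine markers (9.68 and 10.25). The mean diet difference was -1.02 (SE 0.77, adjusted p = 0.402), and it changed direction with the setting. It was -0.43 without array 9, -0.54 without array 7, 0.06 without both (adjusted p = 0.877) and 1.125 with the pancreas and intestine covariates (adjusted p = 0.159), while with the vitellogenin covariate it was -1.80 and called (adjusted p = 0.0419). In ahcy+/+ livers it went from -0.98 to 0.21 without array 9 and to 1.002 with the pancreas and intestine covariates, none of them called.

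The gene cyp26b1 had a difference of -0.18 (adjusted p = 0.232), cyp26c1 of -0.01 (adjusted p = 0.959) and cyp27c1 of -0.33 (SE 0.11, adjusted p = 0.0837). All 4 retinoid P450 genes thus had a negative difference, as had 9313 of all 15134 tested probe sets. Limma called 0 of the 4, beside 10.3% of all tested probe sets. At an unadjusted p under 0.05 there was 1, beside 27.7%. Of 18 measured retinoid genes other than P450s, 2 rose and 2 fell, beside 10.3% of all tested probe sets called. Those that rose were rdh12l (0.85, adjusted p = 0.0139) and the retinol dehydrogenase dhrs9 (0.39, adjusted p = 0.0188). Those that fell were crabp1a (-0.27, adjusted p = 0.0397), which binds retinoic acid, and bco2a (-0.61, adjusted p = 0.0158), which cleaves carotenoids.

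None of the 5 steroid hormone genes reached 8 (log2) on any array. The gene cyp11a1.1, of the family that cleaves the cholesterol side chain, stayed between 4.01 and 4.67. The gene cyp17a1, whose enzyme leads to cortisol and sex steroids, read 4.37, 4.24, 4.19 and 3.77, then 4.11, 4.25 and 4.61 on the regular diet, and 4.23, 4.31, 4.13, 4.17 and 3.82, then 4.04 and 4.14 after overfeeding, with the diets overlapping and a difference of -0.12 (SE 0.12, adjusted p = 0.544). The steroid cell markers star, nr5a1a and mc2r had a list mean of 5.06 to 5.60 on all arrays.

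The brain aromatase gene cyp19a1b, which oestrogen induces, read 5.25, 5.12, 5.33 and 4.71, then 5.30, 5.09 and 5.40 on the regular diet and 5.46, 5.46, 5.29, 4.95 and 5.04, then 5.49 and 5.18 after overfeeding. It was lowest on the array with the most vitellogenin and highest on overfed ahcy+/- array 1, the next in vitellogenin. Its difference was 0.11 (SE 0.13, adjusted p = 0.624). For the ovarian aromatase cyp19a1a the difference was 0.25 (adjusted p = 0.407), and for cyp11c1, whose enzyme makes cortisol and the fish androgen precursor, it was -0.28 (SE 0.09, adjusted p = 0.0784). Limma thus called 0 of 5, beside 10.3% of all tested probe sets. At an unadjusted p under 0.05 there was 1, beside 27.7%. Of 23 measured steroid genes other than P450s, 1 rose and 1 fell, beside 10.3% of all tested probe sets called. Those were hsd17b3, a hydroxysteroid dehydrogenase, which rose (2.57, adjusted p = 0.023), and star, which fell (-0.48, adjusted p = 0.0324). The SDs of hsd17b3 were 1.95 and 1.04 in regular-diet ahcy+/+ and ahcy+/- livers, and 0.79 and 0.09 in the overfed ones. The group means of star were 4.93 to 5.54.

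In the fatty acid and eicosanoid group, cyp2p6, of a fish subfamily related to the arachidonic acid epoxygenases of mammals, read 9.83, 10.26, 9.76 and 9.89, then 9.78, 9.57 and 9.39 on the regular diet, and 9.88, 9.78, 9.72, 10.29 and 9.94, then 11.14 and 10.03 after overfeeding. Both overfed ahcy+/- arrays were above the 3 regular-diet ahcy+/- arrays, whereas the ahcy+/+ diets overlapped. The difference was 1.0 in ahcy+/- livers (SE 0.27, adjusted p = 0.149) and -0.01 in ahcy+/+ livers (adjusted p = 0.983). The mean diet difference of cyp2p6 was 0.49 (SE 0.17, adjusted p = 0.0817), not called. Over 26 alternatives that difference ran from 0.21 to 0.77, the latter without overfed ahcy+/- array 4, which leaves array 1 alone in its group. Among the fits that kept both overfed ahcy+/- arrays, limma called it only with arrays centred on their medians (0.57, adjusted p = 0.0476). The diet by genotype interaction was 1.013 (SE 0.34, adjusted p = 0.9996), not called, and the larger of the overfed ahcy+/- values came from array 1, which had a vitellogenin mean of 12.4. Without array 1 the ahcy+/- difference was 0.45 (adjusted p = 0.505), and without array 4 it was 1.555 (adjusted p = 0.124).

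Its neighbour cyp2p10 had a mean diet difference of -0.28 (SE 0.09, adjusted p = 0.0731), and cyp2p8 and cyp2p9 had 0.09 (adjusted p = 0.705) and -0.20 (adjusted p = 0.267). For cyp4v2b and cyp4v2a, whose human counterpart hydroxylates fatty acids, the differences were -0.40 (SE 0.20, adjusted p = 0.215) and -0.09 (adjusted p = 0.753). Limma called 0 of the 6 genes of this group, beside 10.3% of all tested probe sets. At an unadjusted p under 0.05 there were 2, cyp2p6 higher and cyp2p10 lower, beside 27.7% of all tested probe sets. The gene cyp20a1 read 7.46 to 8.16 in overfed ahcy+/+ and 7.32 to 8.17 in regular-diet ahcy+/+ livers, with a mean diet difference of -0.31 (adjusted p = 0.213).

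Genotype was compared on each diet to see whether the livers labelled ahcy+/- differed from those labelled ahcy+/+. On the regular diet, after overfeeding, in the mean of both and in the interaction, limma called 0 P450 genes, beside 0.0% of all tested probe sets in each. At an unadjusted p under 0.05 there were 2 on the regular diet (4.26% against 3.03%), 1 after overfeeding (2.13% against 1.72%), 4 in the mean (8.51% against 2.45%) and 1 in the interaction (2.13% against 1.91%). The 4 were cyp3a65 (0.41, SE 0.15), cyp2p8 (0.31, SE 0.13) and cyp26c1 (0.19, SE 0.08), higher in ahcy+/-, and cyp2y3 (-0.36, SE 0.17), lower, each with an adjusted p of 0.999. On the regular diet all 3 cyp3a65 values of ahcy+/- livers (11.35 to 12.04) were above the 4 of ahcy+/+ livers (11.11 to 11.27). The highest came from the array with the most intestine signal. On the other cyp3a65 probe set the genotypes overlapped (8.53 to 9.22 against 8.06 to 9.12). Its mean genotype difference was 0.15 (SE 0.19, adjusted p = 0.999). For the other probe sets of cyp2y3 the difference was -0.03 and -0.15. The share of all probe sets whose genotypes do not overlap was not counted. The next by unadjusted p were cyp27a1.1 (0.72), cyp20a1 (0.28), cyp19a1a (0.30), cyp2k18 (0.67), cyp2k22 (0.80) and cyp11c1 (-0.10), as values without a call.

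P450 enzymes need electron donors and haem. Among 17 measured genes of these functions 4 rose and 1 fell in the mean diet effect, beside 10.3% of all tested probe sets called. Their median difference was 0.15 against -0.07 over all tested probe sets. The cytochrome b5 genes cyb5a and cyb5b, which pass electrons to P450s, rose by 0.46 (adjusted p = 0.0231) and 1.39 (adjusted p = 0.00677), and the haem-binding pgrmc1 and pgrmc2 by 0.44 (adjusted p = 0.0352) and 0.53 (adjusted p = 0.034). The gene alas1, the rate-limiting enzyme of haem synthesis in liver, fell by 0.82 (adjusted p = 0.0403). In ahcy+/+ livers alone cyb5b (2.11, adjusted p = 0.00456) and cpox, another haem synthesis enzyme (0.88, adjusted p = 0.0455), rose.

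Of 28 measured regulators of P450 genes, 3 rose and 3 fell in the mean diet effect, beside 10.3% of all tested probe sets called. Their median was -0.11 against -0.07 over all tested probe sets. The aryl hydrocarbon receptor target tiparp rose by 1.36 (adjusted p = 6.86e-05), in each genotype by itself as well (1.23 and 1.497), the receptor gene ahr2 rose by 0.43 (adjusted p = 0.0227), and its paralogue ahr1a fell by 0.76 (adjusted p = 0.0192). The liver factors cebpb and cebpa rose by 1.05 (adjusted p = 0.0108) and fell by 2.15 (adjusted p = 0.0177), and nr0b2a, a receptor partner that represses bile acid synthesis in mammals, fell by 2.56 (adjusted p = 0.0312). On the regular diet cebpa and nr0b2a varied widely, with SDs of 1.3 and 1.6 in ahcy+/+ and 1.3 and 2.2 in ahcy+/- livers. After overfeeding their SDs were 0.6 and 0.3 in ahcy+/+ and 0.7 and 1.1 in ahcy+/- livers. In ahcy+/+ livers alone hnf4a rose by 0.67 (adjusted p = 0.0216), while its ahcy+/- means were 6.93 on the regular diet and 6.67 after overfeeding, and the interaction was not called. Of 22 other genes of foreign compound metabolism, 2 rose and 2 fell, beside 10.3% of all tested probe sets called. The sulfotransferases sult1st1 (0.80, adjusted p = 0.0294) and sult1st3 (0.64, adjusted p = 0.0304) rose. Lower were sult6b1 (-2.24, adjusted p = 0.00575) and the glutathione transferase mgst3a (-0.59, adjusted p = 0.00895).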

How the data were processed

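Liver RNA of 14 fish was measured on a 1-colour Affymetrix array. The authors deposited 1 summary value per probe set and array, read here as log2 from their range (0.464 to 14.738, array medians 5.95 to 6.121); GCRMA and Partek are named, per the submitters' processing notes, with no version or role. Their order is not given in the sources used here. The authors' values were used without rescaling.

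The 115 control probe sets were left out, as were 368 that did not exceed 4 (log2) on 2 or more arrays, leaving 15134. Group means were fitted with limma 3.58.1 in R 4.3.3 (10 residual and 3.06 prior degrees of freedom, no covariate), and p-values were Benjamini-Hochberg adjusted over the 15134 within a comparison, with a threshold of 0.05. Confidence intervals come from the same fit. The number of arrays limits precision. The model was tested on simulated data. Genes were named from the platform annotation, and all 68 P450 probe sets matched a reference gene table, which was also used for gene neighbours. The reference proteins and promoters were not used here.

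The members, roles and gene lists were chosen with earlier results of these data known. Named genes were those called in any comparison; cyp1a, cyp3a65, cyp51, cyp17a1, cyp19a1b, cyp26a1 and the measured paralogues of cyp7a1, cyp8b1 and cyp11a1; in each role the gene with the highest mean and up to 3 with the smallest p for diet; 10 with the smallest p for genotype; and called genes of the lists, at most 6 per list. The regulator list exceeded this limit, since hnf4a, called in ahcy+/+ livers alone, was named beside 6 others. The genes with wide ranges, the other cyp2aa, cyp46a1 and cyp2p genes and the genes called without array 9 were named after their values were seen.

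The labels do not say what the replicate numbers stand for. They were not taken to pair samples. A label number differed between the title and the description of 1 overfed ahcy+/+ sample, and the title was used. Alternatives were the low-value filter, trend and robust moderation, array weights, quantile normalization, median centring, vitellogenin or pancreas and intestine means as covariates, the compared groups alone, the replicate block, probe set choice and leaving out each array. Fits without the 2 arrays highest in vitellogenin or in intestine markers, and counting any probe set of a gene, were added after seeing the data. Plots used matplotlib 3.10.9 and Python 3.11.15.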

Additional observations from a re-analysis of the deposited data

Results flagged for a closer look

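Within groups of 4 or 5 arrays, 13 of 136 group values had 1 array set apart from the rest by Dixon's criterion, in 12 genes. For normally distributed values chance gives about 1 in 20. The criterion was run on P450 probe sets alone. The 13 thus have no share over all probe sets beside them and are not read as a trait of P450 genes. Regular-diet ahcy+/+ array 9 gave 5 of these: 7.285 for cyp2k22 (others 11.286 to 11.993), 8.579 for cyp2k6 (others 4.696 to 4.96), 8.459 for cyp26a1 (others 3.334 to 4.052), 9.957 for cyp2x10.2 (others 10.846 to 11.01) and 7.845 for the other probe set of cyp8b1.1 (others 8.959 to 9.015). In the same group array 2 was high for cyp27a2 (5.672) and for another probe set of cyp26b1 (5.661), array 5 was low for cyp2aa6 (6.221) and cyp11a1.1 (4.012), and array 6 was high for cyp24a1 (12.178). In overfed ahcy+/+ livers array 3 was high for the other probe set of cyp8b1.1 (9.532) and low for cyp27c1 (4.59), and array 2 was high for cyp20a1 (8.158).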

How the results depend on the processing

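Shares in brackets are of the 47 P450 genes and then of all probe sets tested. The number of P450 genes called for diet in ahcy+/+ livers (1; 2.13%, 4.5%) became 2 with vitellogenin as a covariate (4.26%, 7.2%), 0 with the pancreas and intestine covariates (0.0%, 4.43%), 0 with the replicate block (0.0%, 0.482%), 4 without the 2 arrays highest in vitellogenin (8.51%, 8.33%), 4 without the 2 highest in intestine markers (8.51%, 9.26%), and 0 to 4 when each array was left out (1.67% to 8.86% of all probe sets). The number for the mean diet effect (2; 4.26%, 10.3%) became 1 with trend and robust moderation (2.13%, 9.82%), 7 with array weights (14.9%, 18.6%), 9 with the vitellogenin covariate (19.1%, 16.2%), 4 with the pancreas and intestine covariates (8.51%, 7.21%), 4 without the arrays highest in vitellogenin (8.51%, 10.7%), 8 without those highest in intestine markers (17%, 15.9%), and 1 to 9 when each array was left out (3.55% to 15.3% of all probe sets). The share of all probe sets called thus rose or fell along with the P450 count in most of these settings. With arrays centred on their medians the mean diet count stayed at 2 (4.26%, 10.9%), with cyp2p6 called higher in place of cyp2x7. The number of genes whose diets did not overlap (1; 2.13%, 3.55%) became 2 with arrays centred on their medians, with cyp2k22 added, and 1 to 2 when each array was left out. For this count the share of all probe sets was not computed under the alternatives, so its change cannot be set against that share. The replicate block could be fitted for diet in ahcy+/+ livers alone, where numbers 2 and 6 occur in both diets; their deviations correlated at -0.0837 and 0.123, so the numbers were not taken to pair the samples. In that fit cyp3a65 had a difference of -1.04 (adjusted p = 0.0957). The cause of these shifts was not tested. Counts for diet in ahcy+/-, both genotype comparisons, their mean and the interaction were 0 under each alternative run. The mean contrasts and the interaction could not be fitted on the compared groups alone.

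Median centring moved the median diet difference of all probe sets in ahcy+/- livers from -0.09 to 0.01, and in the mean effect from -0.07 to 0.01. The mean of its probe sets gave cyp51 a mean diet difference of 1.85, against -0.23 for its highest-mean probe set, and neither was called. Groups of 2 and 3 arrays limit what the ahcy+/- comparisons can show.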
